A study of Danio rerio with 18 samples.

Results

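Adhesion genes known from zebrafish gastrulation were followed across all libraries of the series, all from embryos at 4 h post-fertilisation. The 8 genes were chosen by exact gene name and all 8 were found among the 32520 genes of the count tables: the classical cadherins cdh1, cdh2 and cdh6, the protocadherins pcdh8, pcdh10b, pcdh18a and pcdh18b, and the epithelial cell adhesion molecule epcam. Another row, spelled PCDH8 in capitals under a separate identifier, held 21 counts in 4 libraries and was not taken as a member. Of the 8 genes, 7 passed the filter on low counts and were tested, and pcdh10b, with 28 counts in all libraries together, did not.

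Cadherins are membrane proteins that bind their own kind on neighbouring cells through calcium-dependent outer domains, while their inner tails hold catenins and, through them, the actin skeleton. In the early zebrafish embryo E-cadherin (cdh1) is supplied by the mother as mRNA and protein and is needed for the blastoderm to spread over the yolk, whereas N-cadherin (cdh2) and most protocadherins are best known from the mesoderm and nervous system that form later. Protocadherins adhere weakly by themselves and are known to change the strength of classical cadherin contacts, as paraxial protocadherin (pcdh8) does in gastrulating mesoderm.

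RfxCas13d is a CRISPR enzyme that cleaves RNA paired with a guide RNA (gRNA). With 200 gRNAs in 8 cocktails, the study tested how well predictions made outside the embryo fit mRNA loss inside it. Whole embryos were collected at 4 h post-fertilisation, in 2 libraries for each cocktail of 25 gRNAs, given at 10 pg per embryo, and in 2 libraries for the RfxCas13d control, 18 libraries in 9 groups. The sources used here do not give the strain, the form in which RfxCas13d was supplied, whether 10 pg counts each gRNA or the cocktail, what else control embryos received, or the genes that the gRNAs match. No gene is therefore named as a target. The labels do not say that the 2 libraries of a group came from separate clutches or injections, and p-values measure the spread between these libraries, which may be technical.

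Gene counts per library ran from 2544027 to 4864939, and 14514 genes were tested. Cocktail libraries had more unmapped reads, 21.6% to 47.3% against 10.1% and 10.8% in the controls. Marker genes moved with the groups too: summed over 12 enveloping layer genes (the outer epithelium of the embryo), the controls stood at 4359 and 4562 CPM (gene counts scaled to library size, with TMM factors) and the cocktails between 22.2 and 1894. The 8 yolk syncytial layer genes summed to 878 and 892 CPM in controls and 3.24 to 873 in cocktails, the 11 mesendoderm genes to 2210 and 2275 against 12.97 to 1213, the 8 ectoderm genes to 1567 and 1622 against 15.7 to 747, and 10 maternal egg transcripts to 943 and 973 against 1653 to 4202. The yolk syncytial sum holds genes that went opposite ways. Its mxtx2 averaged 237 CPM in controls and 350 in cocktails and was not called, while gata6, hnf4a and mttp, 3 of the 4 tested, were called lower. Other sums also mixed directions. Log2 fold changes were below 0 in 9 of 11 mesendoderm genes, 5 of 6 tested ectoderm genes and 1 of 10 maternal transcripts. Within these lists apoa1b and sox2 were at 0 in both controls. Cocktail 1 replicate 1 stood apart: it held the lowest sum of all 4 embryonic lists and the highest of the maternal list, and without it the lowest cocktail sums were 688, 344, 419 and 531 CPM. The libraries of Cocktail 3 also lay far apart, with a chi-square per degree of freedom of 24.3 between them against 33.4 in Cocktail 1 and 3.58 to 8.00 in the other groups. Cocktail 3 replicate 2 held the highest yolk syncytial sum of the cocktails, 873 CPM, and without it the highest was 658 CPM. Some of the values that these libraries move are given with and without them. In whole embryos, fewer cells of a type and less RNA per cell cannot be told apart, and the part of the unmapped reads, of the marker shifts and of the maternal transcripts in the results below was not tested.

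In control embryos the members covered a wide range of levels. On the deposited TPM scale, which accounts for gene length, epcam was highest at 1923 and 1656, followed by cdh1 at 342 and 334 and by cdh2 at 21.4 and 24.1. The levels of these 3 genes did not overlap. cdh6 followed at 5.23 and 12.2 TPM, overlapping pcdh18b at 3.00 and 5.74, while pcdh8 at 4.67 and 4.07 lay inside the range of pcdh18b and below that of cdh6. Both pcdh18a, at 0.49 and 0.28 TPM, and pcdh10b, at 0 and 0.21 TPM, were near the limit of detection. In the 16 cocktail libraries epcam (1207 to 1943 TPM), cdh1 (111 to 299 TPM) and cdh2 (2.34 to 8.76 TPM) kept that order without overlap. The other 5 members overlapped one another, and pcdh10b, with 5.13 TPM in Cocktail 3 replicate 2, also overlapped cdh2, which stood at 2.34 TPM in that library. By counts the order there was the other way, with 7 for pcdh10b (2.30 CPM) and 25 for cdh2 (8.21 CPM). TPM per CPM of pcdh10b differed up to 6.89-fold between libraries, so this overlap holds on the TPM scale only. Without that library the highest value of pcdh10b was 1.59 TPM and the lowest of cdh2 3.31 TPM.

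**Figure D1:**
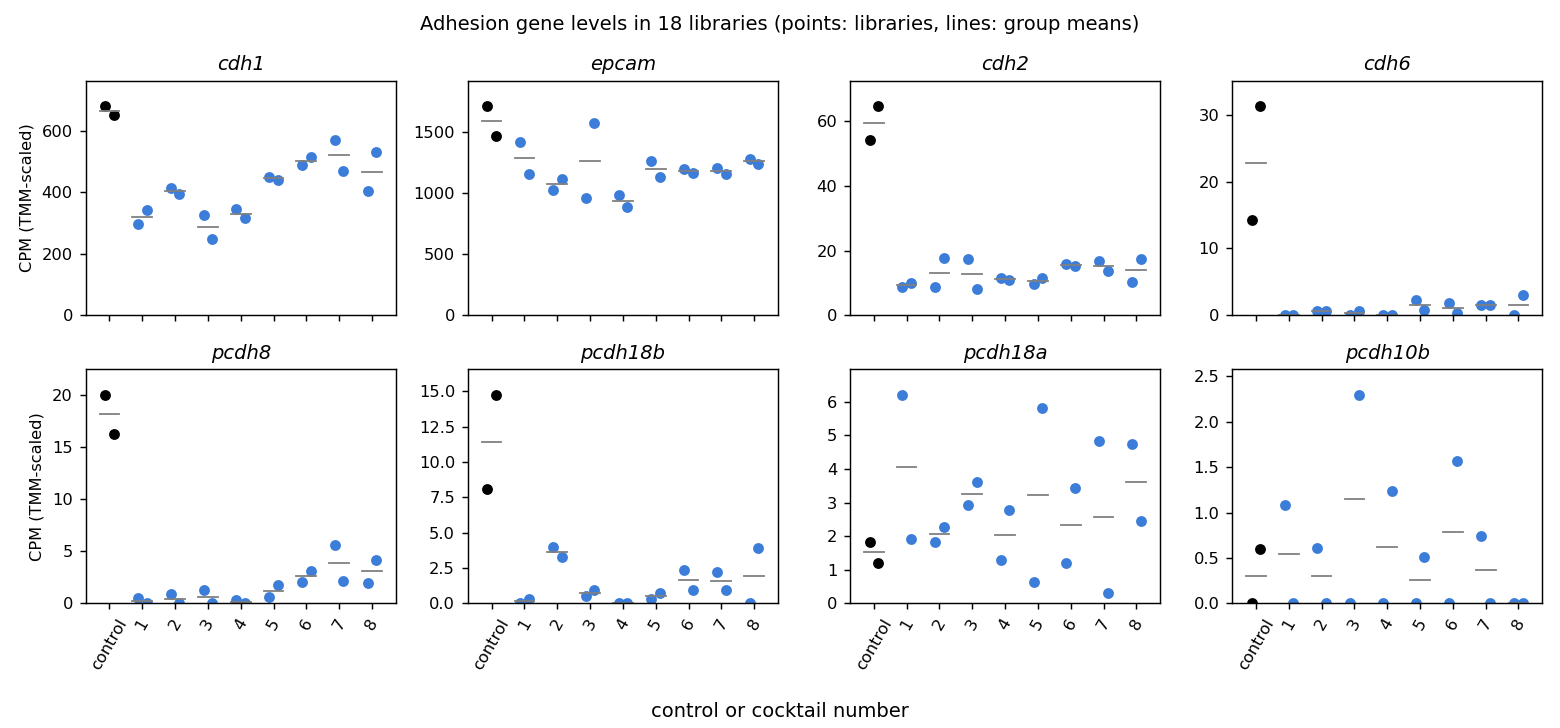
Level of each of the 8 adhesion genes in CPM (vertical axes, linear and from 0), for the 2 control libraries (black) and the 2 libraries of each of the 8 cocktails (blue); grey lines are group means. Both control points lie above all 16 cocktail points for cdh1, cdh2, cdh6, pcdh8 and pcdh18b, and within their range for pcdh18a and pcdh10b.

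With the mean of all 8 cocktails set against the control, 6 of the 7 tested members fell and none rose, whether by edgeR at an adjusted or an unadjusted p under 0.05 or by DESeq2. Across all genes tested by edgeR's quasi-likelihood test at an adjusted p under 0.05, 13.6% were lower and 15.1% were higher in this comparison, and at an unadjusted p under 0.05 the shares were 18.9% and 20.6%. The median log2 fold change was -2.24 over the 7 members and 0.03 over all genes. In 5 of the 8 members all 16 cocktail libraries lay below both controls, a pattern found in 12.3% of all genes tested. One of the tested members, cdh6, passed the filter on low counts only through its control libraries, and so the counts over the 7 tested members describe them and carry no further weight. Without Cocktail 1 replicate 1 the same 6 members were called lower, at log2 fold changes of -2.24 for cdh2, -5.72 for cdh6, -4.59 for pcdh8, -3.89 for pcdh18b and -0.48 for epcam, beside cdh1.

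The maternally supplied cdh1 showed a modest decrease that was present in every cocktail library. Its controls stood at 680 and 650 CPM (2952 and 2158 counts), and the 16 cocktail libraries at 247 CPM at the lowest, 408 at the median and 571 at the highest, all below both controls. Mean levels were 665 ± 21.2 CPM (SD, n = 2) in controls and 409 ± 92.5 CPM (SD, n = 16) in cocktails, 1.63-fold lower. The log2 fold change was -0.73 ± 0.13 (SE) with an adjusted p of 0.000299. Without Cocktail 1 replicate 1 it was -0.73 ± 0.11 with an adjusted p of 2.54e-05. Without Cocktail 3 replicate 2, the library with the lowest cdh1, it was -0.71 ± 0.12. Over all 26 alternatives it kept its call, with values between -0.80 and -0.61.

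The measured decrease of cdh1 varied between cocktails, though the differences between cocktails did not pass the test given below. In CPM its 2 libraries read 296 and 341 in Cocktail 1, 414 and 395 in Cocktail 2, 326 and 247 in Cocktail 3, and 345 and 316 in Cocktail 4. They read 450 and 440 in Cocktail 5, 489 and 516 in Cocktail 6, 571 and 471 in Cocktail 7, and 403 and 529 in Cocktail 8. The pairs of Cocktails 1, 3 and 4 therefore lay below those of the other 5 cocktails without overlap. A single cocktail was called where the change was 2-fold or more and the adjusted p under 0.05, and cdh1 was called in those 3 cocktails: in Cocktail 1 at -1.06 ± 0.19 (SE, adjusted p = 0.000366), in Cocktail 3 at -1.21 ± 0.19 (adjusted p = 0.000111) and in Cocktail 4 at -1.01 ± 0.19 (adjusted p = 0.000663). The value fell short of 2-fold in 4 of 26 alternatives in Cocktail 1, in 8 of 26 in Cocktail 4 and in 0 of 26 in Cocktail 3, with the adjusted p still under 0.05. Without Cocktail 1 replicate 1 it was -0.97 in Cocktail 1 (adjusted p = 0.00224), and without Cocktail 3 replicate 2 it was -1.02 in Cocktail 3 (adjusted p = 0.00256). Cocktails 2 and 5 passed the adjusted p but not the fold minimum, at -0.72 (adjusted p = 0.0166) and -0.58 (adjusted p = 0.0391). The values in Cocktails 8, 6 and 7 were -0.51, -0.41 and -0.35, with adjusted p of 0.0855, 0.221 and 0.272. All 8 comparisons share the 2 control libraries.

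The cocktails were also compared with each other, each against the mean of the 7 others, which uses no control library. No member was called in any of these comparisons by edgeR, DESeq2 or limma on TPM, except that edgeR with no filter on low counts called 1 in Cocktail 7, and 1.65% of all genes were called in at least 1 of them. For cdh1 the differences ran from -0.55 ± 0.15 (SE) in Cocktail 3 to 0.43 ± 0.14 in Cocktail 7 on the log2 scale, with 0.136 as the lowest adjusted p over the 8. At an unadjusted p under 0.05, edgeR's test passed cdh1 in 5 cocktails, cdh6, pcdh8 and pcdh18b in 3 each, epcam in 1, and cdh2 and pcdh18a in none. The share of all genes passing at that threshold was not taken, so these counts only describe the members. The differences in cdh1 level between cocktails thus did not pass the test over all genes.

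epcam, which encodes an epithelial adhesion protein that is also supplied by the mother and works beside cdh1 in the spreading epithelium, was the most abundant member. Its controls read 1711 and 1465 CPM, and its cocktail libraries 886 at the lowest, 1160 at the median and 1573 at the highest. Of the 16, 15 lay below both controls, and Cocktail 3 replicate 2, at 1573 CPM, lay between them. The means, 1588 ± 174 CPM (SD, n = 2) and 1171 ± 171 CPM (SD, n = 16), differed 1.36-fold. The log2 fold change was -0.45 ± 0.14 (SE, adjusted p = 0.0215). Without Cocktail 3 replicate 2 it was -0.49 (adjusted p = 0.00149). The call rested on both controls: without control replicate 1 the value was -0.33 (adjusted p = 0.329), and without control replicate 2 it was -0.56 (adjusted p = 0.0718). On log2(TPM + 1) it was -0.31 with limma (adjusted p = 0.107). In single cocktails epcam reached an adjusted p under 0.05 in Cocktail 4, at -0.77 ± 0.20 (SE, adjusted p = 0.00772), less than 2-fold.

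cdh2, the N-cadherin of neural tube and mesoderm, fell further than cdh1. Controls had 235 and 215 counts, or 54.1 and 64.8 CPM, and the cocktail libraries 8.21 CPM at the lowest, 11.6 at the median and 17.6 at the highest. The highest cocktail library lay far below the lower control. The mean fell from 59.5 ± 7.51 CPM (SD, n = 2) to 12.7 ± 3.50 CPM (SD, n = 16), 4.68-fold lower, with a log2 fold change of -2.24 ± 0.26 (SE) and an adjusted p of 1.65e-06. It was called in all 8 cocktails, with log2 fold changes from -1.93 ± 0.42 (SE, adjusted p = 0.00632) in Cocktail 6 to -2.68 ± 0.44 (adjusted p = 0.00015) in Cocktail 1, or -2.59 there without replicate 1. Of 26 alternatives the call was lost in 4 in Cocktail 2, 6 in Cocktail 6, 5 in Cocktail 7, 4 in Cocktail 8 and 0 in the other 4 cocktails. In Cocktail 6, for example, it did not pass without its replicate 1 (adjusted p = 0.0787) or without control replicate 2 (adjusted p = 0.0721). Unlike the other members that fell most, cdh2 was present in every cocktail library, with 25 to 71 counts.

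The 3 remaining members that fell, cdh6, pcdh8 and pcdh18b, were nearly absent from many cocktail libraries. cdh6, a type II cadherin known from kidney and neural crest, had 62 and 104 counts in the controls (14.3 and 31.3 CPM) and 0 to 12 counts in the cocktail libraries (at most 2.94 CPM, median 0.632). It was at 0 in both libraries of Cocktails 1 and 4 and in 1 library each of Cocktails 3 and 8. The 2 controls lay far apart, and the lower one was still above all 16 cocktail libraries. The fitted log2 fold change was -5.70 ± 0.64 (SE, adjusted p = 2.45e-06), a size that depends on the prior count where groups are at 0. As cdh6 passed the filter on low counts only through its controls, this p is a description and carries no further weight. With 3 counts over the 2 libraries as the floor, cdh6 was at least 49.3-fold lower in Cocktail 1 and at least 45.8-fold lower in Cocktail 4. Without Cocktail 1 replicate 1 the floor over the library left gave at least 22.6-fold in Cocktail 1. In Cocktail 3, with 2 counts, both in replicate 2, it was 73.7-fold lower (exact 95% interval 20.1 to 614), and in Cocktail 8, with 12 counts, 11.9-fold lower (6.65 to 23.6). These floors and intervals cover counting error only.

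pcdh8, paraxial protocadherin, had 87 and 54 counts in the controls, or 20.04 and 16.3 CPM. Its counts in the 2 libraries were 2 and 0 in Cocktail 1, 3 and 0 in Cocktail 2, 5 and 0 in Cocktail 3, 1 and 0 in Cocktail 4, and 2 and 7 in Cocktail 5. They were 7 and 10 in Cocktail 6, 15 and 7 in Cocktail 7, and 5 and 17 in Cocktail 8. All 16 were under the lower control, and each of Cocktails 1 to 5 held fewer counts than any of Cocktails 6 to 8. The mean fell from 18.2 ± 2.67 CPM (SD, n = 2) to 1.54 ± 1.63 CPM (SD, n = 16), 11.8-fold lower, with an adjusted p of 1.47e-05. By counts of both libraries together pcdh8 was 117-fold lower in Cocktail 4 (exact 95% interval 20.6 to 4640) and 62.8-fold lower in Cocktail 1 (17.1 to 524). Both counts of Cocktail 1 were in its replicate 1, and without that library pcdh8 was at least 19.2-fold lower there. Its call was lost in 2 of 26 alternatives in Cocktail 2, 1 in Cocktail 3 (without its replicate 2, adjusted p = 0.0559), 5 in Cocktail 5 and 0 in Cocktails 1 and 4. In Cocktails 6, 7 and 8 it was 7.07-fold (4.26 to 12.5), 4.94-fold (3.14 to 8.13) and 5.53-fold (3.51 to 9.10) lower, and there it was not called. Against the 7 other cocktails Cocktail 7 was higher by 2.24 log2 units (adjusted p = 0.186), which did not pass.

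pcdh18b, a delta-type protocadherin, had 35 and 49 counts in the controls (8.06 and 14.8 CPM) and 0 to 16 counts in the cocktails (at most 3.98 CPM). It was at 0 in both libraries of Cocktail 4 and in 1 library each of Cocktails 1 and 8. Cocktail 2 kept the most of it among the cocktails by group mean, 13 and 10 counts, and Cocktail 8 had 0 and 16 counts in its 2 libraries. The mean fell from 11.4 ± 4.74 CPM (SD, n = 2) to 1.29 ± 1.41 CPM (SD, n = 16), 8.87-fold lower, with an adjusted p of 0.000204 for the fitted change of -3.997 ± 0.69 (SE). Cocktail 4 was at least 23.2-fold lower than the control, and Cocktail 2 was 3.02-fold lower (exact 95% interval 1.88 to 5.02). This floor and this interval cover counting error only. By edgeR's test the change in Cocktail 2 was -1.64 ± 1.08 (SE, adjusted p = 0.359) and did not pass. pcdh18b was called in Cocktails 1, 3, 4 and 5. The calls in Cocktails 3 and 5 were each lost in 5 of 26 alternatives, namely without either of their own libraries, without either control and on log2(TPM + 0.1). The call in Cocktail 1 was lost in 1, without its replicate 1 (adjusted p = 0.0662), and that in Cocktail 4 in 0.

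The other pair of protocadherins did not follow this pattern. pcdh18a, the sister gene of pcdh18b and known from cell movement in gastrulation, had 8 and 4 counts in the controls (1.84 and 1.20 CPM) and 1 to 23 in the cocktails (0.311 to 6.21 CPM, median 2.62). Of the 16 cocktail libraries 11 lay above both controls and 3 below both. The difference, 0.85 ± 0.90 on the log2 scale (SE, adjusted p = 0.518), was not called here or under any of the 26 alternatives, where it ran from 0.45 to 1.19. Its highest level was in Cocktail 1 replicate 1, and without that library the value was 0.70 (adjusted p = 0.604). pcdh10b, the OL-protocadherin of paraxial mesoderm, had 0 and 2 counts in the controls and 0 to 7 in the cocktails, with 9 of 16 cocktail libraries at 0, and a difference was not detectable at this depth.

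**Figure D2:**
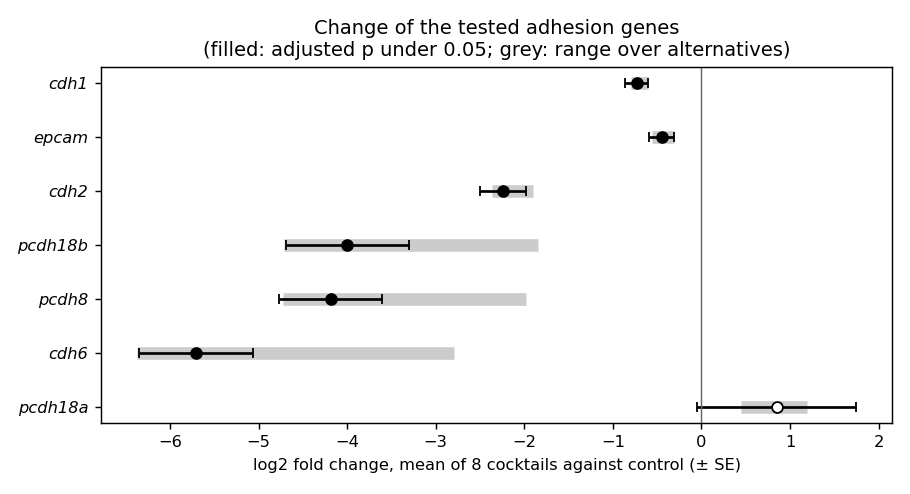
Log2 fold change of the 7 tested adhesion genes between the mean of 8 cocktails and the control (horizontal axis), with bars for the SE; filled points passed an adjusted p under 0.05 and grey bands span the 26 alternatives. cdh1 at -0.73 and epcam at -0.45 sit near 0, cdh2, pcdh18b, pcdh8 and cdh6 lie between -2.24 and -5.70, and pcdh18a at 0.85 is open; the wide bands of the last 3 that fell include the TPM scales with a pseudocount, which shrink the change of low genes.

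Taken cocktail by cocktail, 5 of the 7 tested members were called lower in Cocktails 1, 3 and 4, 4 in Cocktail 5, 3 in Cocktail 2, and 2 in each of Cocktails 6, 7 and 8. cdh2 and cdh6 were called in all 8, but cdh6 was tested only because of its level in the controls, so its calls are a description. They were lost in 4 to 6 of 26 alternatives in Cocktails 2, 5, 6, 7 and 8 and in 0 in Cocktails 1, 3 and 4. pcdh8 was called in Cocktails 1 to 5, pcdh18b in 4 cocktails and cdh1 in 3. The shares of all tested genes called lower were 7.86% in Cocktail 1, 3% in Cocktail 2, 7.7% in Cocktail 3, 6.69% in Cocktail 4 and 3.47% in Cocktail 5. They were 1.14% in Cocktail 6, 1.67% in Cocktail 7 and 2.25% in Cocktail 8, so the cocktails with the fewest calls among the members were also those with the fewest among all genes. No member was called higher in any cocktail, against 17.7% of all genes called higher in at least 1. Several of these counts changed when single libraries were left out. In Cocktails 1, 2 and 3 fewer of all genes were called lower in those fits as well. Their shifts therefore do not describe the members alone. For Cocktails 5 to 8 the count over all genes was not set beside these shifts. The count was 3 in Cocktail 1 without its replicate 1, 1 in Cocktail 2 without either of its libraries, and 3 in Cocktail 3 without its replicate 2. In Cocktail 5 it was 1 without either of its libraries or either control. In Cocktail 6 it was 0 without either of its libraries or control replicate 2, and 1 without control replicate 1. In Cocktail 7 it was 1 without its replicate 1 or control replicate 1, and 0 without its replicate 2 or control replicate 2. In Cocktail 8 it was 0 without its replicate 1 and 1 without either control.

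The level of each member was then set against cdh1 in the same library, as a percentage in TPM, with no test since the members were chosen for this contrast. cdh2 stood at 6.26% and 7.22% of cdh1 in the controls and at 1.32% to 3.78% in the cocktails (median 2.32%). pcdh8 stood at 1.36% and 1.22% in the controls and at 0% to 0.442% in the cocktails (median 0.148%), and pcdh18b at 0.876% and 1.72% against 0% to 0.721% (median 0.133%). cdh6 stood at 1.53% and 3.66% against 0% to 0.478%. For these 4 genes all 16 cocktail libraries lay below both controls. The share of all genes with this pattern in their ratio to cdh1 was not taken, so the count only describes the members. In CPM the mean ratio to cdh1 was 2.84-fold lower in cocktails for cdh2, 5.90-fold for pcdh18b, 8.38-fold for pcdh8 and 19.7-fold for cdh6. For epcam the ratios overlapped: its CPM was 225% and 252% of that of cdh1 in the controls and 211% to 637% in the cocktails, with 10 of 16 above both controls. The 637% was Cocktail 3 replicate 2, and without it the highest was 480%, in Cocktail 1 replicate 1. In CPM the ratio of pcdh18a to cdh1 lay above both controls in 13 of 16 cocktail libraries, and pcdh18a itself in 11.

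**Figure D3:**
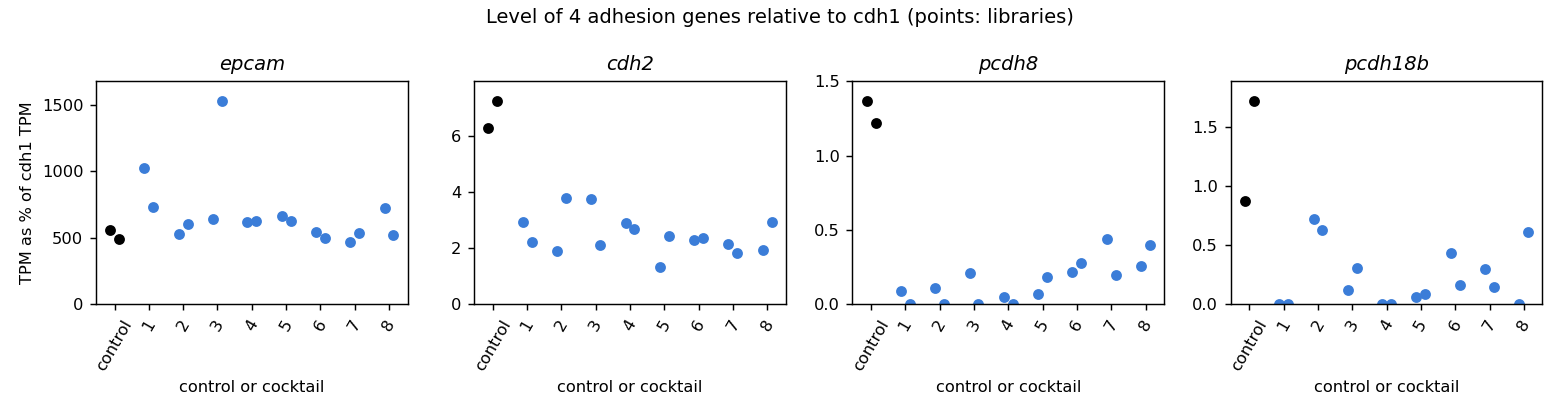
TPM of 4 adhesion genes as a percentage of the TPM of cdh1 in the same library (vertical axes, linear and from 0), for 2 control libraries (black) and 2 libraries per cocktail (blue). cdh2, pcdh8 and pcdh18b lie below both controls in all 16 cocktail libraries, whereas epcam, at 471% to 1528% in cocktails and 496% and 562% in controls, overlaps them. The 1528% is Cocktail 3 replicate 2, and the next highest, 1026%, is Cocktail 1 replicate 1.

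The names maternal and zygotic come from earlier knowledge of these genes, as no egg or cleavage-stage library was part of the comparison. Cocktail 1 replicate 1, with embryonic marker sums near 0, showed the members in an embryo sample with little of those transcripts. In that library cdh1 stood at 296 CPM, epcam at 1420 CPM and pcdh18a at 6.21 CPM, whereas cdh6 and pcdh18b had 0 counts and pcdh8 had 2. cdh2 stood there at 8.65 CPM with 32 counts, inside the range of the 15 other cocktail libraries (8.21 to 17.6 CPM). The enveloping layer sum of that library was 22.2 CPM and its mesendoderm sum 12.97 CPM. In Cocktail 4, where cdh6, pcdh8 and pcdh18b together had 1 count, the enveloping layer sums were 735 and 688 CPM. The mesendoderm sums there were 419 and 420 CPM and the ectoderm sums 598 and 531 CPM. Apart from Cocktail 1 replicate 1, the lowest cocktail sums of these lists were all in Cocktail 4. The lowest yolk syncytial sum, 344 CPM, was then in Cocktail 5 replicate 2. How the members relate to these sums was not tested.

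For each tested member the 3 genes with the most similar profile over the 16 cocktail libraries were found among 11356 genes, by the root mean square difference of log2 CPM after subtracting the mean of the controls. Nearest to cdh1 were polr2a, the largest subunit of RNA polymerase II, at 0.152 log2 units, the Wnt receptor gene fzd7b at 0.171 and the BMP receptor gene acvr1l at 0.175. cdh2 was most like ppl (0.457), which encodes periplakin and is on the enveloping layer list, the tetraspanin gene cd82a (0.524) and the heparan sulfate enzyme gene hs6st2 (0.557). The nearest to cdh6 were the enveloping layer keratin krt97 at 0.832, CR854839.1 at 0.895 and si:ch211-98n17.5 at 0.899. Those of pcdh8 were the adaptor gene bcar3 at 0.607, the forkhead gene foxd5 at 0.888 and si:ch211-69b7.6 at 0.985. pcdh18b had phospho1 at 0.798, cd81a at 0.920 and ptbp1a at 0.949. epcam had bcl2l10 at 0.172, gm2a at 0.179 and wdr82 at 0.180. pcdh18a had wdfy2 at 0.552, ppt2 at 0.555 and fam8a1b at 0.583. The distance takes in the size of the change from the controls as well as the differences between cocktail libraries. For cdh6 it includes 6 cocktail libraries at 0. Distances were larger for the rarer members, whose counts carry more sampling noise, and no likeness was tested.

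Inside the cell, classical cadherins act through the adherens junction. Of 23 listed junction genes 21 were named in the files and 19 were tested: 5 fell, none rose and 14 were below 0, with a median log2 fold change of -0.43, beside 13.6% of all genes lower, 15.1% higher and 7069 of 14514 below 0. At an unadjusted p under 0.05 edgeR's test passed 9 lower (18.9% of all genes) and 1 higher (20.6% of all genes), the nectin gene nectin3b at 0.37, which DESeq2 did not call. The 5 that fell were jupa (plakoglobin), at -0.995 ± 0.17 (SE, adjusted p = 0.00012), ctnnb1 (beta-catenin, which binds the cadherin tail), at -0.93 ± 0.16 (adjusted p = 0.000217), the ZO-3 gene tjp3 at -0.88 (adjusted p = 0.000804), the p120-catenin gene ctnnd1 at -0.87 (adjusted p = 0.00738) and the ZO-1 gene tjp1a at -0.51 (adjusted p = 0.0492). ctnnb1 went from 1324 ± 17.4 CPM (SD, n = 2) to 706 ± 158 CPM (SD, n = 16). The other beta-catenin gene, ctnnb2, stood at -0.43 (adjusted p = 0.079) and alpha-catenin ctnna1 at -0.45 (adjusted p = 0.0546), and neither passed. With control replicate 1 or 2 left out, fewer junction genes were called lower, and the list median was -0.43 or -0.47. The count over all genes was not set beside that. More were called lower without Cocktail 1 replicate 1 or without Cocktail 3 replicate 1, at list medians of -0.44 and -0.49. More of all genes were called lower in those fits as well. On log2(TPM + 1) 2 junction genes were called lower, beside 1209 of all 19867 genes. The call of tjp1a was lost in 20 of 26 alternatives and those of tjp3 and ctnnd1 in 4 each. tjp3 did not pass without control replicate 1 (adjusted p = 0.0826), nor ctnnd1 without control replicate 2 (adjusted p = 0.155).

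Genes that set the amount or strength of cadherin contacts were more often below 0 than above it. Of 40 listed regulators 33 were tested, 7 fell and 1 rose, beside 13.6% and 15.1% of all genes, with a median of -0.33. Of these 33, 27 were below 0, beside 7069 of all 14514 genes. At an unadjusted p under 0.05 edgeR's test passed 12 lower (18.9% of all genes) and 1 higher (20.6% of all genes). pou5f3, a maternal transcription factor whose loss is known to disturb cadherin trafficking during epiboly, fell from 2504 ± 35.8 CPM (SD, n = 2) to 1103 ± 253 CPM (SD, n = 16), a log2 fold change of -1.21 ± 0.14 (SE, adjusted p = 1.29e-06). Of the RhoA genes, rhoaa fell by 1.90 ± 0.36 (SE, adjusted p = 0.00096) and rhoab by 1.78 (adjusted p = 0.0268) on the log2 scale. The planar polarity gene vangl2 stood at -0.84 (adjusted p = 0.00337), the small GTPase gene rap1aa at -0.71 (adjusted p = 0.00323) and snai1a, a Snail-family repressor, at -0.60 (adjusted p = 0.00284). The gene that rose, prickle1a, stood at 0.79 (adjusted p = 0.0407) and lost its call in 16 of 26 alternatives, with adjusted p between 0.0505 and 0.394, among them RLE size factors, no filter and all 3 fits on TPM. Among those lower, the call was lost in 8 of 26 for each of rhoab and rhoac, 5 for vangl2, 2 for snai1a and 1 for rap1aa. The abundant rac1a, at 1331 and 1126 CPM on average, did not pass (-0.26, adjusted p = 0.258). With control replicate 1 or 2 left out, fewer list genes were called lower, and the list median was -0.32 or -0.33. The count over all genes was not set beside that. More list genes were called lower with either library of Cocktail 1 left out, and more of all genes were as well. The list median was then -0.37 without replicate 1 and -0.32 without replicate 2. These shifts in the number called therefore do not describe the regulators alone. Copies such as rhoaa, rhoab and rhoac are similar in sequence, and their counts are uncertain where reads fit more than 1 copy.

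Most other cadherin superfamily genes were too rare to test. Of 57 further identifiers 20 were tested, of which 4 fell and none rose, beside the same 13.6% and 15.1%, with a median of -0.09 that turned positive under some alternatives. At an unadjusted p under 0.05 edgeR's test passed 4 lower (18.9% of all genes) and 2 higher (20.6% of all genes). Those higher were cdh4 (1.59) and pcdh7b (2.05), with adjusted p of 0.0891 and 0.0743 by edgeR, and DESeq2 called pcdh7b (adjusted p = 0.044). Both desmosomal cadherin genes tested fell: dsc2l from 36.4 to 6.84 CPM, at -2.45 ± 0.38 (SE, adjusted p = 5.45e-05), and dsg2.1 from 38.5 to 10.2 CPM, at -2.09 ± 0.38 (adjusted p = 0.00026). Desmosomes are the spot-like junctions that tie keratin filaments of epithelial cells together. The calsyntenin gene clstn1 stood at -0.83 (adjusted p = 0.0185) and lost its call without either control (adjusted p = 0.127 and 0.166). The large cadherin gene fat2 had 2.94 CPM in controls and 0.603 in cocktails, and did not pass without control replicate 1 (adjusted p = 0.193) or with DESeq2 (adjusted p = 0.384). Among 39 identifiers with names like those of clustered protocadherins, the 1 tested was pcdh1b. It was placed there by the spelling of its name alone and may be a non-clustered protocadherin. It is not part of the counts of the 57 further identifiers. Its level fell from 264 ± 32.3 CPM (SD, n = 2) to 72.0 ± 32.1 CPM (SD, n = 16), at -2.01 ± 0.41 (SE, adjusted p = 0.00404). Its call was lost without control replicate 2 (adjusted p = 0.0646). Of the marker lists in the same comparison, 10 of 12 enveloping layer genes, 3 of 4 tested yolk syncytial genes, 4 of 11 mesendoderm genes and 2 of 6 tested ectoderm genes fell and none of them rose, while 7 of 10 maternal egg transcripts rose and none fell. Some enveloping layer genes were so rare in cocktails that only the controls could bring them past the filter. Examples are anxa1c, at 6.35 CPM in controls and 0.191 in cocktails, and znf750, at 8.00 and 0.158. The marker counts therefore describe the lists and carry no further weight.

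**Figure D4:**
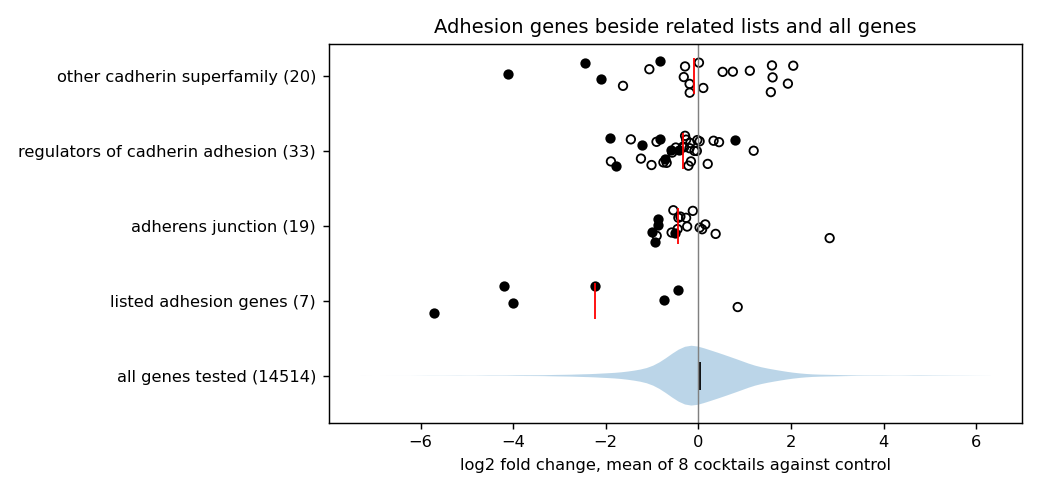
Log2 fold change between the mean of 8 cocktails and the control (horizontal axis) for the 7 tested adhesion genes, the 3 related lists and all 14514 genes tested (blue outline, width shows density); points are genes, filled where the adjusted p was under 0.05, and vertical marks are medians. The medians are -2.24 for the adhesion genes, -0.43 for the adherens junction, -0.33 for the regulators, -0.09 for the other cadherin superfamily and 0.03 for all genes.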

How the data were processed

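Tables of raw gene counts and of TPM (length-scaled abundances, a unit inferred from the values), deposited by the authors for each library, were used. The submitters' processing notes name bcl2fastq 2.20 and danRer11. The sources used here do not give the aligner, counter, strand setting or annotation. The Nextera XT kit, per the labels' protocols, does not mark strand, so a gene and an overlapping or antisense partner cannot be told apart. Deposited TPM did not follow deposited counts by a fixed factor per gene: TPM per CPM differed up to 2.26-fold between libraries for cdh2 and up to 6.89-fold for pcdh10b.

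Rows that name no gene (22.6% to 55.5% of reads) were left out. Gene counts per library were 2544027 to 4864939. In edgeR 4.0.16 (R 4.3.3), genes with enough reads (minimum count 10) were scaled by TMM and tested by the robust quasi-likelihood F test with 1 coefficient per group over 18 libraries (common biological coefficient of variation 0.280). P-values were adjusted by Benjamini-Hochberg over 14514 genes. SE is the log2 fold change divided by the square root of F. Levels between genes are compared in TPM. The mean of cocktails was called at an adjusted p under 0.05, and single cocktails also at a change of at least 2-fold. Named genes are all members, list genes called in the mean comparison (up to 6 a list, largest first) or most abundant (up to 3), and the 3 nearest profiles among genes of at least 5 CPM. ctnna1 and any list gene outside that rule were chosen after their values were seen. The members and lists were chosen with earlier results of these data known. Alternatives were RLE size factors, DESeq2 1.42.0, no filter, a replicate block, only the libraries compared, limma 3.58.1 on log2(TPM + 1) and log2(TPM + 0.1), no fold minimum and each library left out in turn. A fit with all cocktail libraries as 1 group was added after seeing the data. The fit was tested on simulated data. No sequence or coordinate is printed, as a danRer11 genome was not used here.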

Additional observations from a re-analysis of the deposited data

How the results depend on the processing

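The number of members lower in the mean comparison stayed between 5 and 6 with each library left out in turn, and the number higher at 0. Calls in single cocktails were less stable. The number of all genes called lower in a cocktail also moved between such fits. With each library left out, the members called against the control ran from 3 to 5 in Cocktails 1 and 3, from 1 to 3 in Cocktail 2, from 4 to 5 in Cocktail 4, from 1 to 4 in Cocktail 5, from 0 to 3 in Cocktails 6 and 8 and from 0 to 2 in Cocktail 7. On log2(TPM + 0.1) limma called 1 member in Cocktails 2 and 5 and 0 in Cocktails 6, 7 and 8, and on log2(TPM + 1), with and without the filter, 1 in Cocktails 7 and 8. With only the 4 libraries compared, 4 members were called in Cocktail 6 and 4 in Cocktail 7. By the same rule, 652 of all 12827 genes were then lower and 1098 higher in Cocktail 6. In Cocktail 7, 621 of 12804 were lower and 793 higher. The fit of all 18 libraries called 166 of 14514 lower and 669 higher in Cocktail 6, and 243 and 656 in Cocktail 7. With no filter on low counts, 1 member was called in Cocktail 7 against the other cocktails. The cause of these differences was not tested.

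The replicate numbers did not pair the samples: over 36 pairs of groups the correlation of replicate 1 deviations ran from -0.124 to 0.125. With a replicate block 6 members were lower in the mean comparison and 1 was called in Cocktail 7, where cdh6 had an adjusted p of 0.0525. Over all genes, 1925 were lower and 2125 higher with the block, against 1970 and 2185 without it. No call of a member changed direction, while the median of the other cadherin superfamily list, -0.09, ran from -0.21 to 0.41 over the alternatives. With 2 libraries a group and few counts for cdh6, pcdh8 and pcdh18b, depth limits what single cocktails can show. A lone library left in a group was assumed to vary like the others.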
